A study of Mus musculus with 14 samples.

Results

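The 10 genes Fasn, Acaca, Acly, Scd1, Scd2, Elovl6, Srebf1, Xdh, Btn1a1 and Thrsp, which serve fatty acid synthesis and milk fat secretion, were followed over 12 mammary tumours of Brg1+/- mice. They were taken by gene symbol from the platform annotation. All 10 of 10 were on the array, through 11 probes of 22575, with 2 probes for Acaca and 1 for each of the others, and all 10 were among the 16877 genes tested. None of the 11 probes had a missing value. RNA was measured on 14 two-colour arrays. Each compared a tumour, labelled with Cy5, with the same mouse reference RNA, labelled with Cy3. T172 and T284 had a second array each, marked biorep in the labels, and were averaged over their 2 arrays. The other 10 tumours had 1 array each. Brg1 encodes an ATPase subunit of SWI/SNF, which remodels chromatin, and every tumour was labelled heterozygous for it, so the comparisons were those between tumours of 1 genotype. The labels used here give no strain, age or treatment, and do not explain the word MIXED in the sample names or say whether tumours came from separate animals. P-values therefore apply to these samples only.

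In the lactating mammary gland, alveolar luminal cells make fatty acids from glucose, and the transcription factor SREBP1, encoded by Srebf1, drives many of the enzymes. Acly supplies cytosolic acetyl-CoA, Acaca turns it into malonyl-CoA, Fasn builds palmitate, Elovl6 lengthens it, and Scd1 and Scd2 introduce a double bond. Thrsp, also called Spot 14, is a small protein that promotes lipogenesis in mammary gland, liver and fat. Xdh, a purine-oxidising enzyme, and Btn1a1, butyrophilin, sit in the membrane around the secreted milk fat droplet, and mice need both for normal fat secretion. Adipocytes make the synthetic enzymes as well.

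Each value below is the log2 ratio of tumour over reference RNA, with base 2 inferred from the range of the deposited values. The reference is not described as normal gland, so only differences between tumours were tested. These were set against the spread within a tumour by limma's moderated F-test over all genes, with Benjamini-Hochberg adjustment and calls at an adjusted p under 0.05. T172 and T284, the tumours with repeat arrays, supplied all of the within-tumour spread. The labels do not say what was repeated for these arrays, so this spread may be that of a repeated hybridisation, extract or piece of tumour, and every call rests on it. Array medians lay between 0 and 0.018, and 22501 to 22566 probes had values on each array. Luminal markers set T176 apart, and its label, like the others, says mammary tumour and names no cell type. Krt18, a keratin of luminal cells, stood at -4.25 in T176 and at 1.14 to 2.97 in the other 11. The score of 9 measured luminal genes, their mean difference from each gene's mean over 12 tumours, was -4.70 in T176 and -0.48 to 1.34 elsewhere. In RNA of whole tumours, fewer cells of a type and less RNA per cell cannot be told apart. Without T176, the same 6 genes described next were called.

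Thrsp, Xdh, Btn1a1, Srebf1, Scd2 and Fasn differed between tumours, and Acaca, Acly, Scd1 and Elovl6 were not called. These 6 of 10 compare with 18.4% of all genes tested. The median SD over tumours was 0.77 for the 10 genes and 0.39 for all genes. Of the 6, 4 had an adjusted p under 0.01, a threshold that 9.42% of all genes passed. T55 and T2134 recurred among the high tumours. T2134 was among the 3 highest for 9 of the 10 genes and T55 for 8, and each was the highest for 4. T176 was among the 3 lowest for 7, T2023 and T646 for 5 each. These ranks include the 4 genes not called, whose order over tumours was not told apart from the within-tumour spread. How often other genes rank these tumours highest or lowest was not counted, so the ranks are a description.

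**Figure D1:**
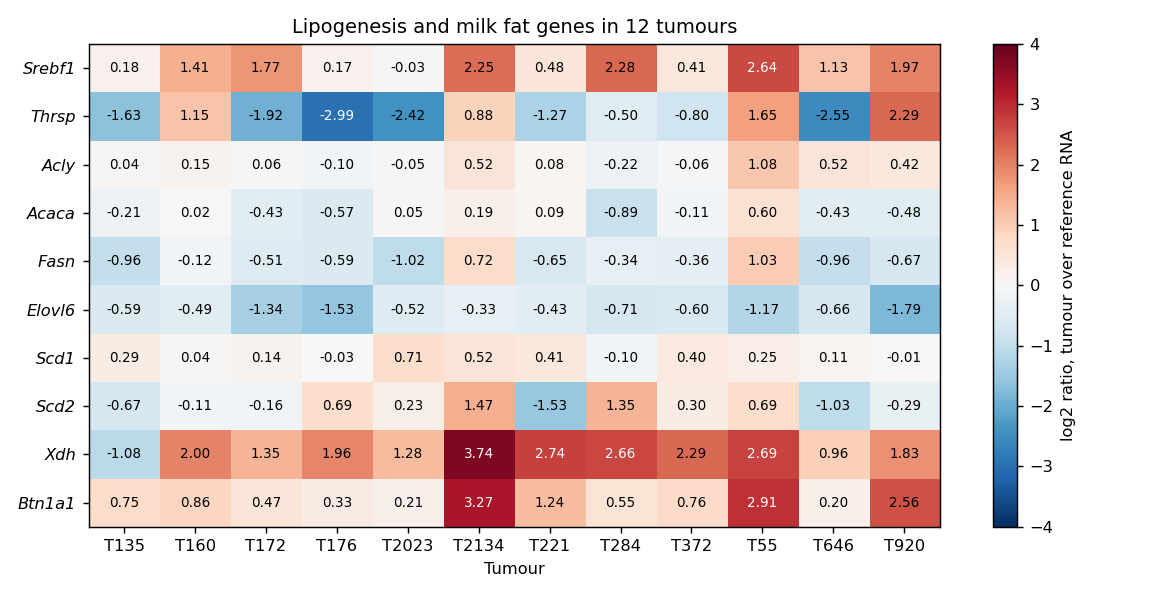
Log2 ratio of tumour over reference RNA for the 10 genes (rows) in 12 tumours (columns), with T172 and T284 averaged over 2 arrays; red is above and blue below the reference. T55 and T2134 carry the high values of Fasn and, with T920, those of Btn1a1, while the Scd1 row stays between -0.10 and 0.72.

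Of the regulators, Thrsp had the widest spread of the 10 genes, with an SD over tumours of 1.78 (n = 12), larger than that of 98.8% of genes. It was lowest in T176 at -2.99, had a median of -1.04 and was highest in T920 at 2.29, a range of 39.0-fold. Of the 12 tumours 4 lay above the reference, T920, T55 (1.65), T160 (1.15) and T2134 (0.88), and the other 8 lay between -2.99 and -0.50. The gap of 1.38 between T2134 and T284 was the 1 step in the order of 12 tumours that exceeded 1.16, the least difference between 2 single arrays at an unadjusted p of 0.05. The difference between tumours was called (limma adjusted p = 0.000745), with a moderated within-tumour SD of 0.37. The 2 arrays of T172 read -2.24 and -1.60 and those of T284 read -0.10 and -0.90, differences of 0.64 and -0.80 (second minus first array) against a median of 1.84 between tumours.

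Srebf1 lay above the reference in 11 of 12 tumours, with a mean of 1.22 ± 0.96 (SD, n = 12). It was highest in T55 at 2.64, followed by T284 at 2.28, T2134 at 2.25 and T920 at 1.97. The lowest were T2023 at -0.03, T176 at 0.17 and T135 at 0.18, and the median was 1.27. The range was 6.38-fold and was called (limma adjusted p = 0.00399). The widest step in the order, 0.65 between T221 and T646, stayed under the least difference of 0.89. The 2 arrays of T284 both read 2.28, and those of T172 read 1.85 and 1.68.

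Upstream sequence is printed for Fasn, Thrsp and Srebf1 because these are the called synthetic and regulatory genes that the sequence table held. It covers the 250 bases before an annotated start, from RefSeq on GRCm38.p6. Of the 10 genes, 6 matched the table (Fasn, Acaca, Acly, Elovl6, Srebf1 and Thrsp), with 8 entries, since Srebf1 has 3 annotated starts. Capitals mark CCAAT, the letters bound by NF-Y, and GGGCGG, those bound by Sp1, on either strand. NF-Y and Sp1 are known partners of SREBP at lipogenic promoters. The windows are chr11:120824548-120824797 (minus strand) for Fasn, chr7:97417551-97417800 (minus strand) for Thrsp, and chr11:60210472-60210721 (minus strand) for the start of Srebf1 that lies farthest downstream in the gene.
Fasn: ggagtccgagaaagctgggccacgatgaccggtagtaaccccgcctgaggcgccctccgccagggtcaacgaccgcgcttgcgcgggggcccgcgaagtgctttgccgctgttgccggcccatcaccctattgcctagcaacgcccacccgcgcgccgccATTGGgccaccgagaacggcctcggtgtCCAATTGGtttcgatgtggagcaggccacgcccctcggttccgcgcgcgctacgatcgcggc
Thrsp: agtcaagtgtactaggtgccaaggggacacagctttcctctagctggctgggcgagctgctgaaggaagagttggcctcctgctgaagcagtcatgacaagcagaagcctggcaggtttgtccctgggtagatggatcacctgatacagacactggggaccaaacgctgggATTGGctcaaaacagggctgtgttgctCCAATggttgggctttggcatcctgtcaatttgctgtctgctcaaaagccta
Srebf1: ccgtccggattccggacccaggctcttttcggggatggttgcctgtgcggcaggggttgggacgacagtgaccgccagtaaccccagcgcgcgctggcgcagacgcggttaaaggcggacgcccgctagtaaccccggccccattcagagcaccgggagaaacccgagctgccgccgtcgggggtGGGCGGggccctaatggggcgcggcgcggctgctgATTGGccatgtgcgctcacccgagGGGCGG

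Fasn held 3 CCAAT matches, first base 90, 62 and 59 before the start, of which the last pair overlap on opposite strands. Thrsp held 2, at 79 and 52 before the start, and the Srebf1 start shown held 1 at 30 together with GGGCGG at 65 and 6. Over all 32851 promoters of the same length, 33.8% held CCAAT and 32.7% held GGGCGG. Of the other entries, Acly held 4 GGGCGG matches and no CCAAT, while Acaca and Elovl6 held neither. The motif TCACNCCAC, an SREBP site with N for any base, was in none of the 8 entries and in 1.05% of all promoters. The E-box letters CANNTG, present in 66.2% of all promoters, occurred in Fasn (1, overlapping the CCAAT pair), Thrsp (2), Acaca (1) and the Srebf1 start shown (1). Of the Srebf1 starts not shown, one held GGGCGG 2 times and the other held CCAAT 1 time and CANNTG 2 times. These matches describe letters in these windows and not bound sites.

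Among the synthetic enzymes, Fasn was high in 2 tumours. It stood at 1.03 in T55 and 0.72 in T2134, the only tumours above the reference, against -1.02 in T2023 to -0.12 in T160 in the other 10, with a median of -0.55 over all 12. The step of 0.85 between T2134 and T160 was the widest in the order and stayed under the least difference of 0.89. Fasn was called only narrowly (limma adjusted p = 0.0478). Without T55 the adjusted p was 0.159 and without T2134 it was 0.0872. The paired arrays differed little, with -0.50 and -0.52 in T172 and -0.43 and -0.25 in T284. Set against the other 11 tumours together, T55 had a difference of 1.52 ± 0.49 (SE, 1 tumour against 11), which limma did not call (adjusted p = 0.9996).

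Acly, which makes the acetyl-CoA, had its highest value in T55 as well, at 1.08, with T646 and T2134 next at 0.52 each. The lowest was -0.22 in T284, and the median was 0.07. The 2 arrays of T284 read -0.69 and 0.24, a difference of 0.93 that exceeded the step of 0.56 between T55 and the next tumour. The gene was not called (limma adjusted p = 0.612).

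Acaca ranged from -0.89 in T284 to 0.60 in T55 with a median of -0.16 and was not called as the mean of its 2 probes (limma adjusted p = 0.226). The probes disagreed. In T2023 they read -0.62 and 0.72, in T920 -1.15 and 0.19, and in T646 0.03 and -0.89, for probes 450 and 7062 in that order. With each probe alone, an alternative chosen after seeing the data, the limma adjusted p was 0.0262 for probe 7062 and 0.337 for probe 450, whose SDs over tumours were 0.66 and 0.42. Whether Acaca differed between tumours thus depended on the probe. Probe 7062 stood at 1.02 in T55, its highest value, and at -0.96 in T284, its lowest. Which part of the transcript each probe reads is not given in the sources used here.

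**Figure D2:**
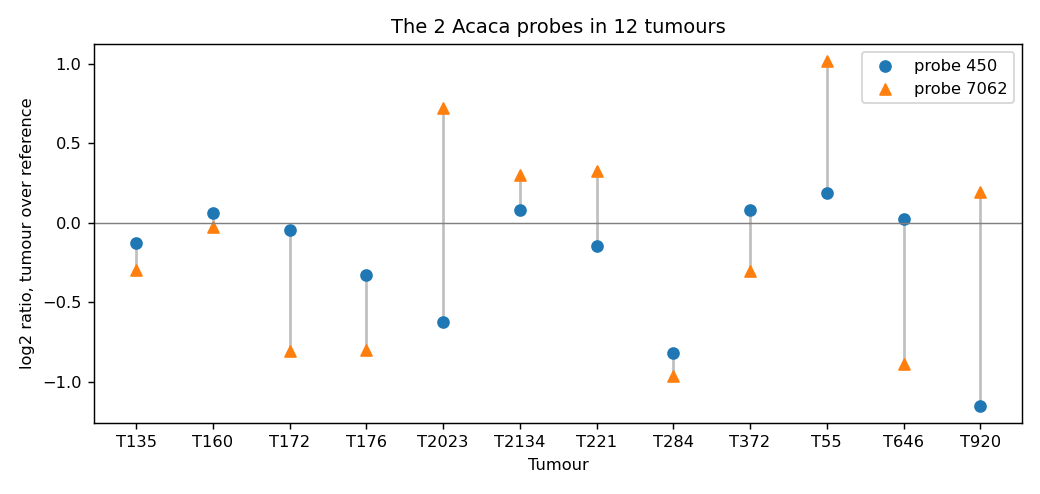
Log2 ratio of tumour over reference RNA for the 2 Acaca probes in 12 tumours; circles are probe 450, triangles probe 7062, and grey lines join them. In T160, T2023, T221, T372, T646 and T920 the probes lie on opposite sides of the reference, 1.35 apart in T2023.

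Elovl6 was below the reference in all 12 tumours, from -1.79 in T920 to -0.33 in T2134 with a median of -0.63. T55, high for most of these genes, had 3 tumours below it, at -1.17. The 2 arrays of T172 read -1.71 and -0.97, a difference of 0.74 against a range of 1.46 over tumours. The gene was not called (limma adjusted p = 0.280).

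The stearoyl-CoA desaturases differed in their spread. Scd1 had the smallest SD over tumours of the 10 genes, 0.25, below that of all but 17.4% of genes, and ran from -0.10 in T284 to 0.72 in T2023. It was not called (limma adjusted p = 0.762), and no 2 neighbours in its order were more than 0.20 apart. Scd2 was called (adjusted p = 0.0125) and ran from -1.53 in T221 through a median of 0.06 to 1.46 in T2134, a range of 7.97-fold. T284 (1.35) was next to the highest and T646 (-1.03) next to the lowest. The arrays read 1.64 and 1.06 in T284, and 0.10 and -0.41 in T172. Scd1 and Scd2 lie in 1 cluster with Scd3 and Scd4 in the RefSeq annotation. Scd3 was measured and not called, at -0.30 in T160 to 0.48 in T172 (adjusted p = 0.871). Whether the probes of these related genes read each other's transcripts was not tested.

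Both genes of the milk fat globule membrane were called. Xdh lay above the reference in 11 of 12 tumours, with a mean of 1.87 ± 1.20 (SD, n = 12). Its highest value was 3.74 in T2134 and its lowest -1.08 in T135, with a median of 1.98 and a range of 28.2-fold (limma adjusted p = 0.00175). T135 stood 2.04 below the next tumour, T646 at 0.96, a step above the least difference of 0.94. The step between T2134 and T221 (2.74) at the top of the order also exceeded it. Without T135 the gene was again called (adjusted p = 0.0145). T135 stood at -1.08, against a mean of 2.14 in the other 11, a difference of -3.22 ± 0.76 (SE, 1 tumour against 11) that limma did not call (adjusted p = 0.363).

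Btn1a1 was above the reference in all 12 tumours, and its widest gap parted 3 high tumours from the other 9. Whether such a gap marks separate clusters or a part of a continuous spread was not tested. T2134, T55 and T920 stood at 3.27, 2.91 and 2.56, against 0.20 to 1.24 in the other 9, with a gap of 1.32 between T920 and T221 and a least difference of 0.97. The median was 0.76 and the range 8.42-fold (limma adjusted p = 0.00353). The arrays of T172 read 0.33 and 0.62 and those of T284 read 0.78 and 0.31, all below the lowest of the 3 high tumours. Fasn did not share this split, since T920 stood at -0.67 for Fasn while Thrsp was highest there.

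**Figure D3:**
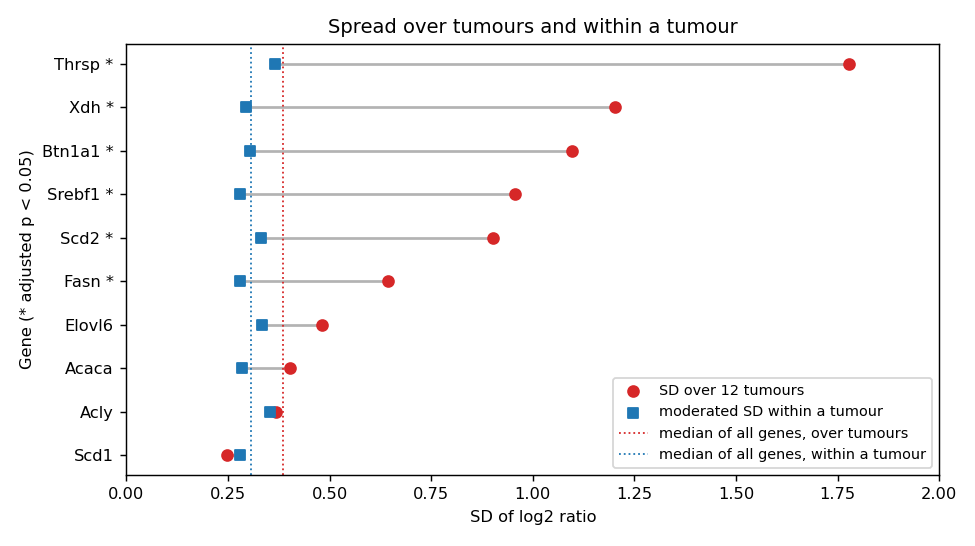
SD of the log2 ratio over 12 tumours (circles) and moderated SD within a tumour (squares) for each gene, with dotted lines at the medians of all genes; an asterisk marks an adjusted p under 0.05. Thrsp has the largest SD over tumours, 1.78, and Scd1 the smallest, 0.25.

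Each tumour was next set against the mean of the remaining 11. None of 120 combinations of gene and tumour was called by limma after adjustment within the tumour, and the lowest adjusted p was 0.324, for Elovl6 in T920. Over all genes and tumours 0.394% of such tests were called, with 3.82% in T176, and elsewhere 0.00593% (T160) to 0.219% (T920). At an unadjusted p under 0.05, 8 of the 120 passed, 6.67%, against 5.65% over all genes. The lone tumour is assumed in this test to vary like the other 11.

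Over the 12 tumours, 36 of the 45 pairs of genes had a positive Pearson's r, with a median of 0.36. No pair passed Benjamini-Hochberg adjustment over the 45 by Pearson's r, although 14 had an unadjusted permutation p under 0.05. By Spearman's rho 1 pair passed, Thrsp with Btn1a1. Each of these genes had 1 gap in its order of tumours that exceeded the least difference. Fasn and Srebf1 had r = 0.708 (permutation p = 0.00509, adjusted p = 0.115) and rho = 0.713 (permutation p = 0.0118, adjusted p = 0.0977), and r = 0.480 without T55 and T2134, the tumours farthest from the Fasn median. Acaca and Scd1 had r = 0.649 (permutation p = 0.0211, adjusted p = 0.119) and rho = 0.790 (permutation p = 0.00301, adjusted p = 0.0677), and r = 0.762 without T284 and T55. Neither gene was called between tumours, and Scd1 had an SD of 0.25 over tumours and a moderated SD of 0.28 within a tumour. In T2023, where Scd1 was highest, the Acaca probes read -0.62 and 0.72. The relation of Fasn with Acly rested on T55 and T2134, with r = 0.641 over 12 tumours (permutation p = 0.0303, adjusted p = 0.136; rho = 0.224, permutation p = 0.483, adjusted p = 0.724) and r = -0.31 without them.

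For Thrsp and Btn1a1 the relations were therefore taken within the larger group of tumours, those below this gap, a step chosen after seeing the data. Whether these groups are separate clusters was not tested. Xdh, with 2 such gaps that each set 1 tumour apart, was kept over all 12. Among the 9 tumours with low Btn1a1, its r with Thrsp was 0.612 (exact permutation p = 0.0785) and its rho 0.783 (exact permutation p = 0.0172), neither passing adjustment over 24 such relations (adjusted p = 0.440 and 0.294). In the same 9 tumours Btn1a1 and the score of 8 milk protein genes had r = 0.670 (exact permutation p = 0.0493, adjusted p = 0.440) and rho = 0.667 (exact permutation p = 0.0589, adjusted p = 0.353). There Btn1a1 and Fasn had r = 0.416 (exact permutation p = 0.264, adjusted p = 0.549) and rho = 0.467 (exact permutation p = 0.213, adjusted p = 0.417).

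**Figure D4:**
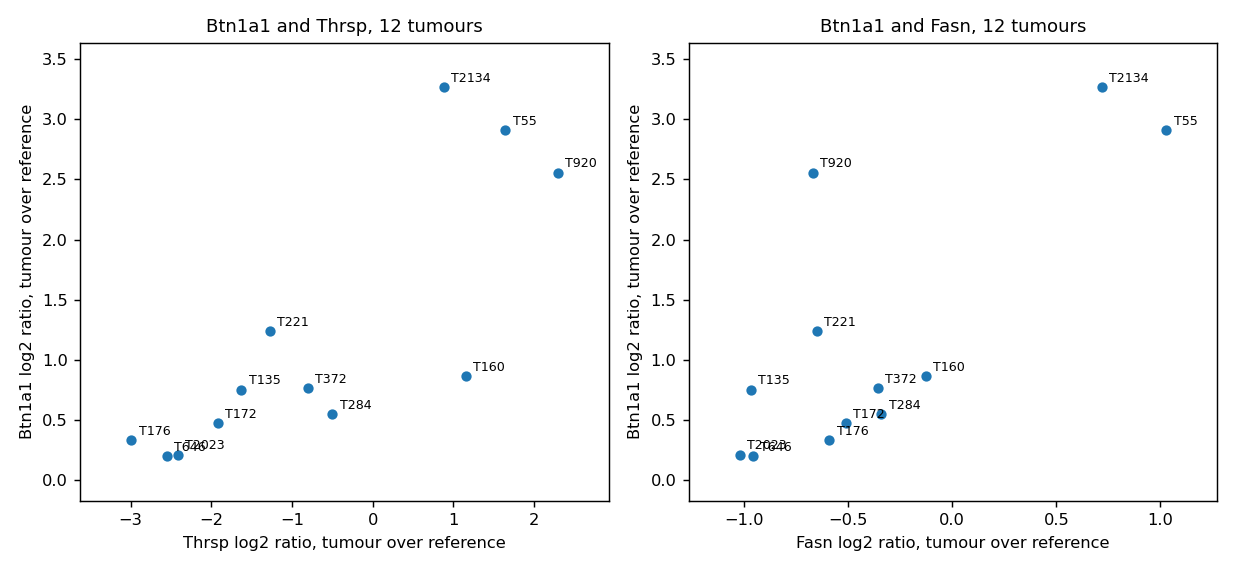
Btn1a1 against Thrsp (left) and against Fasn (right), each as log2 ratio of tumour over reference RNA, 1 point per tumour. T2134, T55 and T920 form the upper group for Btn1a1. For Thrsp the upper group also holds T160, at 1.15 for Thrsp and 0.86 for Btn1a1. T920 lies at -0.67 for Fasn.

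Milk protein genes and luminal markers differed between tumours too, and their part in the differences above was not tested. All 9 luminal genes and 7 of 8 milk protein genes were called, against 18.4% of all genes. With a robust prior 5 of the 8 milk protein genes were called. The milk protein score was highest in T55 (2.19), T2134 (2.10), T372 (1.87), T221 and T160 (1.43), and lowest in T176 (-2.69), T2023 (-2.59) and T135 (-2.50). Csn2, beta casein, stood at 7.42 in T2134, 6.90 in T55, 5.77 in T372 and 5.70 in T221. The caseins Csn1s1 and Csn1s2a were highest in T372, at 6.97 and 7.30, as was Glycam1, a milk mucin, at 5.08. The luminal genes Epcam, Krt19 and Elf5, a factor of alveolar cells, were lowest in T176 like Krt18, at -4.09, -4.12 and -2.23, and Elf5 was highest in T55 at 4.83. Btn1a1 in T372 (0.76) and T221 (1.24) was nonetheless among the lower 9, and T920 had high Btn1a1 with a milk protein score of 0.57. Fasn in T372 and T221 stood at -0.36 and -0.65. With the milk protein score, Fasn had r = 0.698 (permutation p = 0.00824, adjusted p = 0.0860 over 30 relations with marker lists) and rho = 0.685 (permutation p = 0.0167, adjusted p = 0.0715), and r = 0.623 without T2134 and T55. Of the 30 relations none passed adjustment by Pearson's r, 6 had an unadjusted permutation p under 0.05, and 4 passed adjustment by Spearman's rho, of which 3 involved Thrsp or Btn1a1. The remaining one was Srebf1 with the luminal score (rho = 0.762, permutation p = 0.00566, adjusted p = 0.0424; r = 0.577, permutation p = 0.0113, adjusted p = 0.0860), with r = 0.588 without T2023 and T55. Within the 8 tumours with low Thrsp its relation with the luminal score did not pass adjustment (r = 0.664, exact permutation p = 0.0217, adjusted p = 0.440; rho = 0.762, exact permutation p = 0.0368, adjusted p = 0.294).

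**Figure D5:**
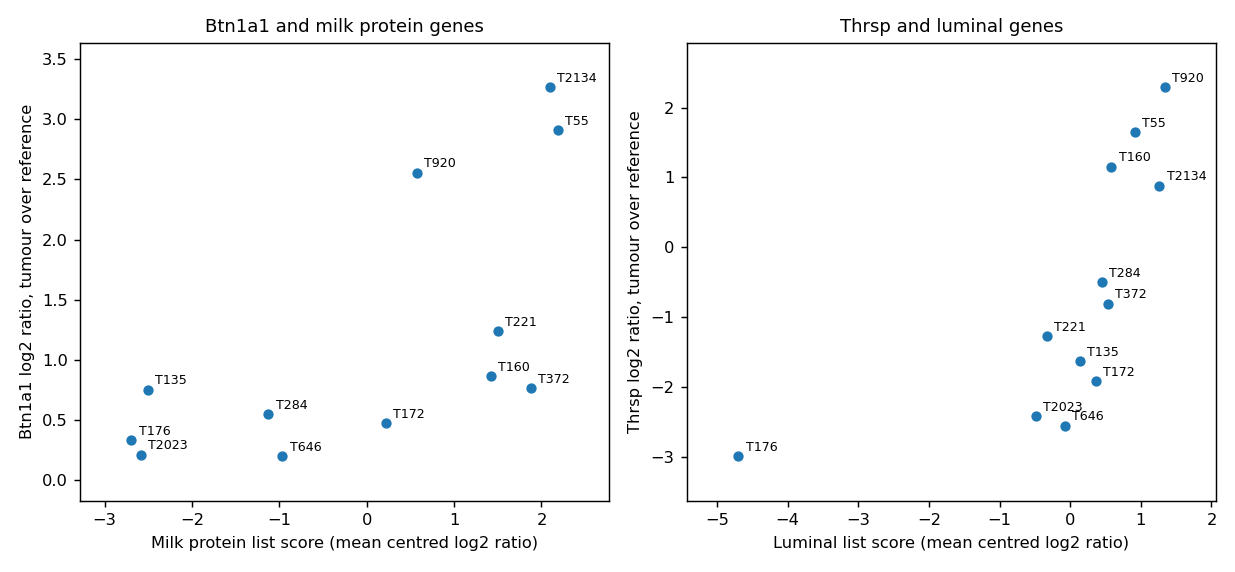
Btn1a1 against the milk protein list score (left) and Thrsp against the luminal list score (right), 1 point per tumour; a score is the mean over list genes of the difference from each gene's own mean. T372, T221 and T160 combine high milk protein scores with Btn1a1 below 1.3, and T176 lies alone at a luminal score of -4.70.

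Of 9 measured markers of fat cells, which also make fatty acids, 8 lay below the reference in all 12 tumours. The exception was Lep, leptin, which ran from -0.40 in T920 to 0.86 in T2023, was above the reference in 4 tumours and was not called (limma adjusted p = 0.450). Plin1, which coats their lipid droplets, ran from -5.80 in T135 to -2.22 in T221, and Adipoq, adiponectin, from -5.15 in T135 to -1.38 in T221. Cidec, of the lipid droplet, ran from -6.13 in T135 to -1.79 in T221, and Slc2a4, the insulin-responsive glucose transporter, from -4.91 in T284 to -2.02 in T176. Of these 9 genes 5 were called, against 18.4% of all genes, with a score of 1.45 in T221 and -0.52 to 0.57 in the other 11. T221 was among the 3 highest tumours for 4 of the 10 genes, Xdh (2.74), Elovl6 (-0.43), Scd1 (0.41) and Acaca (0.09). It stood at -0.65 for Fasn and -1.27 for Thrsp, and was the lowest for Scd2 at -1.53. The adipocyte score was 0.44 in T55 and -0.28 in T2134, the tumours highest in Fasn. Fibroblast markers were all called, 6 of 6, against the same 18.4%, with their highest score in T176 (2.83) and their lowest in T2134 (-1.33) and T920 (-1.20). In T55, also high in Btn1a1, it was -0.40. Of these markers Col1a1, Col1a2, Fap and Pdgfra stood in T176 at 1.89, 2.17, 2.82 and 0.88, each its highest value. Dcn stood there at -0.17, next to its highest, while Col3a1 stood at -3.30, below its mean of -2.66 over the 12 tumours.

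Genes of fatty acid uptake and of the milk fat globule differed between tumours as well, 9 of 10 being called, against 18.4% of all genes. Fabp3, the fatty acid binding protein of muscle and lactating gland, stood at 1.61 in T2134 and 0.80 in T55, against -4.92 to -1.01 in the other 10 (limma adjusted p = 0.000106). Cd36, a fatty acid transporter, was highest in the same 2 tumours at -0.67 in T55 and -1.03 in T2134, followed by T221 at -1.13, and lowest in T176 at -5.28 (adjusted p = 0.000763). Olah, the thioesterase that releases medium-chain fatty acids from Fasn in the rodent gland, stood at 3.53 in T55, 2.74 in T2134 and 2.54 in T172, and at -0.42 to 1.02 in the other 9 (adjusted p = 0.00353). Vldlr went the other way, with its lowest values in T2134 (-1.64) and T55 (-0.82) and its highest in T284 (1.58; adjusted p = 0.0133). The other called genes of this list did not share 1 pattern. Mfge8 was highest in T646 (3.03), Plin3 and Cidea in T172, and Lpl in T221. Plin2 was highest in T2134 but stood at -1.12 in T55, under its median of -0.91. Cd36, and Cidea of this list, are also products of fat cells.

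In 6 further lipid lists 11 of 68 measured genes were called, 16.2%, against 18.4% of all genes. After quantile normalization they were 22 of 68, 32.4%, against 24% of all genes. Over all 16877 genes, 4050 were called with it and 3104 without. The share of the lists thus lay below that of all genes without this step and above it with this step. Of 7 measured genes for precursors and NADPH 1 was called, Me1, malic enzyme, with 3.15 in T172, 3.06 in T284 and -1.48 in T176 (limma adjusted p = 0.00239). Of 10 elongation and desaturation genes 3 were called. Elovl4, which makes very long chains for skin and retina, ran from -3.05 in T172 to 2.34 in T221 (adjusted p = 0.000103), Fads1, a desaturase of polyunsaturated fatty acids, from -1.74 in T172 to 0.79 in T135 (adjusted p = 0.0101), and Hsd17b12, a reductase of the elongation cycle, from -1.83 in T2023 to 0.83 in T284 (adjusted p = 0.0321). Of 12 genes for fatty acid activation and triglyceride synthesis 2 were called, Acsl4, an acyl-CoA synthetase, with 4.83 in T646 and -0.44 in T176 (adjusted p = 0.000173), and Dgat2, which completes triglycerides, with 0.52 in T221 and at most -0.73 elsewhere (adjusted p = 0.00128). Of 11 lipogenic regulators 2 were called. Insig1, which holds SREBP in the endoplasmic reticulum, ran from -2.23 in T135 to 1.29 in T176 (adjusted p = 0.00413), and Mid1ip1, the relative of Thrsp, from -1.26 in T920 to 1.24 in T221 (adjusted p = 0.0143), while Thrsp was highest in T920. Of 17 cholesterol genes 2 were called, Hmgcs1 (adjusted p = 0.0205) and Idi1 (adjusted p = 0.0219), both highest in T221, at -0.05 and 2.18. Of 11 fatty acid oxidation genes 1 was called, Pdk4, the kinase that shuts off pyruvate dehydrogenase, which ran from -5.44 in T284 to -2.12 in T176 (adjusted p = 0.00526). After quantile normalization the cholesterol count was 4, that of oxidation 3 and that of triglyceride synthesis 7.

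By the Pearson r of the log2 ratios over 12 tumours, the genes most like Fasn among 16570 with values in every tumour were Cox15 (0.945), Man1a2 (0.942), Gldc (0.920), Csn1s2b (0.908) and Clint1 (0.907). Gldc, glycine decarboxylase, ran from -3.41 in T284 to 2.74 in T55. Those most like Thrsp were Pus10 (0.944), Tmc5 (0.934), Mitd1 (0.929), Ctnnal1 (0.928) and Fam185a (0.921). For Btn1a1 they were H3c1 (0.932), 1810065E05Rik (0.903), 1600012P17Rik (0.864), P2ry4 (0.864) and Lsm1 (0.862), and for Scd1 they were Clec1b (0.927), Wfdc21 (0.906), Slc22a20 (0.900), Nipal1 (0.897) and Olfr1414 (0.896). Of these genes Gldc, Tmc5, Mitd1, 1810065E05Rik, Wfdc21 and Nipal1 were called between tumours, and the others were not. Scd1 was itself not called, with an SD of 0.25 over tumours and 0.28 within a tumour. The order of tumours that its list follows was thus not told apart from the within-tumour spread. All the r given here are the highest of many correlations over few tumours and are given as a description.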

How the data were processed

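The deposited series table holds, for each of 14 arrays and 22575 probes, 1 value, taken here as a log2 ratio with the tumour's Cy5 over the reference's Cy3, dyes per the labels. How the authors corrected background and normalized is not given in the sources used here. Pearson's r over probes was 0.465 to 0.898 for all array pairs, with none below 0. Two-colour ratios carry no signal level, so dim and saturated probes could not be told apart, and the number of arrays limits precision.

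Probes with 1 symbol in the platform annotation (18658 of 22575; 30 had several and 3887 none) were updated through RefSeq GRCm38.p6, 18445 by Entrez identifier, 24 by accession, and 189 kept their symbol. Probes of a gene were averaged. A gene was tested if 12 or more of the 14 arrays gave a value, including a full pair from T172 or T284 (16877 genes). The F-test used limma 3.58.1 in R 4.3.3 (prior of 7.27 degrees of freedom and SD 0.313), with squeezed within-tumour variances so that missing values were allowed. Each tumour was also set against the mean of the other 11. Both steps were tested on simulated data. The least difference between 2 single arrays came from the moderated within-tumour SD. Relations used 100000 resamples, or every permutation for fewer than 10 tumours, in scipy 1.17.1 (Python 3.11.15, pandas 2.3.3, numpy 2.4.6).

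The 10 genes, the 14 pathway and marker lists and the tests were chosen with earlier results of these data known. Named are the 10 genes, from each list the called genes of largest SD (at most 4), and the 5 genes most like each of Fasn, Scd1, Thrsp and Btn1a1. Scd3, Ucp1, Cidea, Plin2, Plin3, Mfge8, Lpl, Awat2, Mc5r, Far2, Fa2h, Lep, Col3a1 and Dcn were chosen after their values were seen.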

Additional observations from a re-analysis of the deposited data

How the results depend on the processing

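The count of called genes, 6 of 10, lay between 4 and 6 over 23 alternatives (quantile normalization, array medians subtracted, 1 probe per gene, genes on all 14 arrays, robust prior, prior with trend, an adjusted p under 0.01, each tumour left out, and each array of T172 and T284 left out). Thrsp, Xdh, Btn1a1, Srebf1 and Scd2 were called under all of these at an adjusted p under 0.05. Fasn was not called in 7, at adjusted p of 0.0509 to 0.159, which were 1 probe per gene (0.0551), prior with trend (0.0513) and without T2023 (0.0509), T2134 (0.0872), T55 (0.159) or either array of T284 (0.0527 and 0.0526). Acaca was called with 1 probe per gene (0.0306), a setting that keeps the probe with most values and then the larger SD over tumours, and so favours calls. None of the 10 genes was called in 1 tumour against the other 11 under 19 alternatives. No pair of genes was called by Pearson's r, but 2 were after quantile normalization, and leaving out each tumour in turn gave 0 to 4. Relations with marker lists gave 0 to 3 when each tumour was left out. Without T920 the 4 pairs were Fasn with Srebf1, Thrsp and Btn1a1, and Thrsp with Btn1a1. Without T176 the 3 relations were Thrsp and Btn1a1 with luminal genes and Xdh with milk protein genes. The cause of these changes was not tested.

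No paired analysis was possible because only T172 and T284 have a second array, and no label numbers the replicates in a way that pairs tumours. With 1 array for 10 of 12 tumours, a difference between single tumours rests on 1 hybridisation each.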

Other observations

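The score of the cholesterol synthesis genes was highest in a different tumour from Fasn. T221 had the highest value for 9 of the 17 measured genes and T284 for 7, and the list's score was 0.77 in T221 and -0.46 to 0.21 in the other 11. Idi1, an isomerase of the isoprenoid pathway, stood at 2.18 in T221 and -0.25 in T920 (limma adjusted p = 0.0219), and Hmgcs1, which opens the pathway, at -0.05 in T221 and -2.80 in T160 (adjusted p = 0.0205). In the same tumour Fasn stood at -0.65, and Scd2 had its lowest value, -1.53. Since 2 of the 17 genes were called between tumours, 11.8% against 18.4% of all genes, the score is given as a description. T221 also had the highest white adipocyte score, and the part of fat cells in these values was not tested.

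Markers of other lipid-making cells were measured too. The counts of called genes in this paragraph compare with 18.4% of all genes. Of 5 sebaceous gland genes 1 was called, Krt79, with 4.02 in T135 and 2.93 in T2023 against a median of 0.04 (limma adjusted p = 0.00150), while the other 4, Awat2, Mc5r, Far2 and Fa2h, ran between -0.72 and 0.61. Of 5 brown adipocyte genes 2 were called, Dio2, a deiodinase, from -1.65 in T176 to 2.22 in T646 (limma adjusted p = 0.00219), and Cox7a1, a respiratory subunit, from -4.35 in T135 to -2.04 in T172 (adjusted p = 0.0365). Ucp1, the uncoupling protein, was at -4.84 or lower in all tumours. All 5 basal epithelial genes were called, with scores of 2.52 in T2023, 2.17 in T221 and 2.14 in T135, and of 0.49 and -0.59 in T2134 and T55, the tumours with the highest Btn1a1. Trp63, a basal transcription factor, was highest in T221 at 3.57, and the basal keratins Krt5, Krt14 and Krt17 were highest in T2023 at 1.96, 2.93 and 2.73.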
